A study of Homo sapiens with 2 samples.

Results

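The regions described here are the H3K4me3 peaks at HCN4, ARHGEF4 and SH3PXD2A in HEC-1-B, an established human uterine adenocarcinoma cell line. H3K4me3 is trimethylation of lysine 4 of histone H3, measured by chromatin immunoprecipitation and sequencing. There was 1 library from wild type cells and 1 from ZNF143KO cells, in which the gene of the zinc-finger transcription factor ZNF143 was knocked out. Both groups shared the cell line, the culture medium and the antibody. How the knockout was made, and whether it is a single clone, is not given in the sources used here. The mark does not measure the ZNF143 protein, so the knockout itself was not checked.

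The members were taken as every peak region of either list inside 3 windows of the hg19 build: chr15:73658000-73664000 for HCN4, chr2:131592000-131597000 for ARHGEF4 and chr10:105612000-105618000 for SH3PXD2A. The windows were chosen by the rank of the authors' fold values in these same lists. They held 5 regions, 2 of the 19782 wild-type regions and 3 of the 19647 knockout regions on chromosomes 1 to 22, X and Y. Each gene name comes from the window, since no hg19 annotation was used here. By the rise in fold percentile from the wild-type to the knockout list, ARHGEF4 ranked 2 and HCN4 ranked 3 among all pairs of regions, with 83.9 and 73.5 points. A percentile is a region's rank within its own list, from 0 to 100. The pair just above them rose by 88.3 points and the pair just below by 68.1 points. The SH3PXD2A region ranked 5 by fold among knockout regions that lacked any wild-type region inside 1 kb. Its fold was 19.5, against 20.1 for the region just above and 17.4 for the region just below. Because this contrast chose the members, their differences between genotypes are given as descriptions with no test.

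H3K4me3 is laid down at the start sites of active and poised genes by the SET1 and MLL methyltransferase complexes, which are drawn to unmethylated CpG-rich DNA. ZNF143 is known as an activator that binds near many start sites and as a factor associated with chromatin looping. HCN4 encodes a hyperpolarization-activated, cyclic nucleotide-gated cation channel, known for the pacemaker current of the sinoatrial node of the heart. ARHGEF4, also called ASEF, encodes a guanine nucleotide exchange factor for the small GTPases RAC1 and CDC42 that is stimulated by the APC tumour suppressor and acts in cell migration. SH3PXD2A, also called TKS5, encodes a scaffold protein phosphorylated by SRC and needed for podosomes and invadopodia, the protrusions with which cells degrade matrix.

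The RefSeq promoter table (build GRCh38.p14) held 1 start site for HCN4, 2 for ARHGEF4 and 5 for SH3PXD2A. The 250 bases before the most upstream start of each gene are shown, 5′ to 3′ on the gene's own strand, because H3K4me3 gathers at CpG-rich starts. Capitals mark CpG dinucleotides. Which start lies under a region was not determined, since the builds differ.
HCN4: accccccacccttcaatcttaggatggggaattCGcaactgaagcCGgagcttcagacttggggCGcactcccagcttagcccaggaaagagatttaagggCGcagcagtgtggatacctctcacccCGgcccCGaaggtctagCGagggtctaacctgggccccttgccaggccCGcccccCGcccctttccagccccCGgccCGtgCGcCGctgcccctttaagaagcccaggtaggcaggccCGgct
ARHGEF4: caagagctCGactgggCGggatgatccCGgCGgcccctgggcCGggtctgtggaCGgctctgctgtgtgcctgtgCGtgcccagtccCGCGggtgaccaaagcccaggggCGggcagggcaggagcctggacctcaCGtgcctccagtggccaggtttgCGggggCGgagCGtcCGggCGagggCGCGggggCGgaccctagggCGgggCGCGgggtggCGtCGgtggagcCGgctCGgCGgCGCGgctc
SH3PXD2A: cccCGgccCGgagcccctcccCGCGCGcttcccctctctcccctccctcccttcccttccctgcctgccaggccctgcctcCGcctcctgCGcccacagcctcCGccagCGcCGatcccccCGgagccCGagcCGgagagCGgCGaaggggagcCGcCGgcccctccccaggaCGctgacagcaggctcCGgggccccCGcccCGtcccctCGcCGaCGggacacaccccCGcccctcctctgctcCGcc
The stretch before the HCN4 start held 14 CpGs, that of ARHGEF4 29 and that of SH3PXD2A 26. Over the whole 300-base window of the table, which adds 50 bases after the start, the ratio of observed to expected CpG was 0.610 for HCN4, 0.859 for ARHGEF4 and 0.812 for SH3PXD2A. The median of all 35116 windows was 0.579. The HCN4 window was therefore near the middle of human promoters, at percentile 51.7, and the most upstream windows of ARHGEF4 and SH3PXD2A stood higher, at percentiles 75.4 and 69.4. The other start of ARHGEF4 stood at percentile 95.6. The other 4 starts of SH3PXD2A stood between percentiles 36.4 and 53.3, with a GC content from 58.0% to 64.3%. In the most upstream windows the GC content was 65.0% for HCN4, 77.0% for ARHGEF4 and 79.3% for SH3PXD2A, against a median of 58.7%. The letters ACTACA, part of the motif that ZNF143 is known to bind, were searched on both strands. They occurred in 0 of the 8 windows of these genes and in 8.46% of all windows. A longer form, with TCCC following after any 2 bases, overlaps the first by definition and occurred in 1.75% of all windows. An absent match says only that these letters are not in these windows.

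At HCN4 the wild-type list held 1 weak region at chr15:73660848-73661255 and the knockout list 1 stronger region at chr15:73660379-73661323. The authors' fold over local background was 6.24 for the wild type, against 20.2 for the knockout. Their −log10 p was 10.5 and 188, and their −log10 q was 8.12 and 185. The number of fragments stacked at the summit, called the pileup, follows from the fold and p columns. Wild-type cells had a pileup of 14 (95% Poisson interval 7.65 to 23.5) and knockout cells one of 198 (171 to 228). The mark was thus detected in both genotypes, faintly in the wild type. The wild-type region was 408 bp wide, with its summit 148 bp from its start, and the knockout region was 945 bp wide, with its summit 719 bp from its start. The summits lay 102 bp apart, against a median distance of 18 bp and an upper quartile of 42 bp over all pairs.

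At ARHGEF4, the wild-type region was chr2:131594462-131594673 and the knockout region chr2:131594345-131595119. The fold was 4.99 for the wild type, against 21.9 for the knockout. The −log10 p was 7.47 and 295, and the −log10 q was 5.15 and 292. The pileup was 11 (5.49 to 19.7) for the wild type, against 306 (273 to 342) for the knockout. The wild-type region was a narrow one of 212 bp and stood at percentile 3.92 of its list by pileup. The knockout region was 775 bp wide and near the middle of its list, at percentile 46.6. The summits were 123 and 254 bp from the starts of their regions and only 14 bp apart, against a median distance of 18 bp over all pairs.

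At SH3PXD2A, the knockout list held 1 region at chr10:105614902-105615511 and the wild-type list held none in the window. The knockout region was 610 bp wide with its summit 260 bp from its start. It had a fold of 19.5, a −log10 p of 83.5, a −log10 q of 80.9 and a pileup of 82 (65.2 to 102). The nearest wild-type region was 61.6 kb away. No wild-type region lay inside 1 kb for 7.37% of all knockout regions. Those 1448 regions had a median pileup of 20, and SH3PXD2A ranked 58 among them by pileup.

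**Figure D1:**
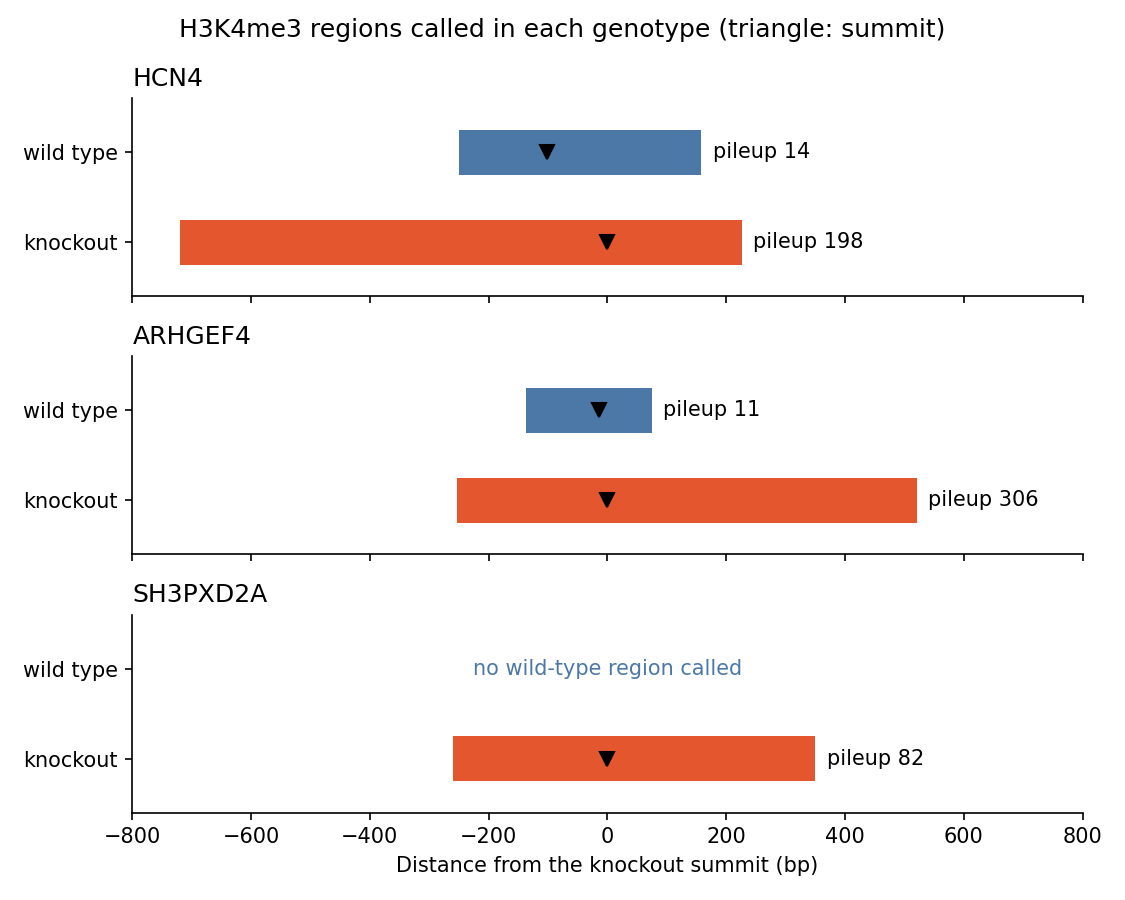
Extent of the called H3K4me3 regions at HCN4, ARHGEF4 and SH3PXD2A in wild-type and ZNF143 knockout cells, in bp from the knockout summit, with triangles at summits and the pileup in fragments beside each bar. The wild-type bars (408 bp and 212 bp) lie inside the knockout bars (945 bp and 775 bp), as was so in 60.0% of all pairs. SH3PXD2A has a knockout bar only.

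A pileup grows with sequencing depth, so each knockout pileup was divided by its wild-type partner and set against the median ratio over all 16501 regions that paired one-to-one between the lists. That median ratio was 1.86. Relative to it, the HCN4 pileup was 7.61-fold higher in the knockout, with an exact 95% binomial interval of 4.43 to 14.2, a log2 ratio of 2.93. The ARHGEF4 pileup was 15.0-fold higher (8.25 to 30.3), a log2 ratio of 3.90. These intervals cover counting error only, at summits that were each chosen as a local maximum, and not differences between cultures or immunoprecipitations. They also make no allowance for the choice of these members by fold in the same lists, so their lower ends are no support for a rise. With 1 library per genotype neither difference has a replicate check.

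Both paired members passed a 2-fold difference in this measure, as did 412 of all pairs, or 2.50%. A 2-fold fall was found in 327 pairs, or 1.98%. ARHGEF4 had the highest ratio of all 16501 pairs and HCN4 ranked 7. The quartiles of all pairs were log2 ratios of −0.20 and 0.19. When the deposited fold was used in place of the pileup, the centred rise also passed 2-fold at both members and in 0.770% of pairs. These counts describe the selection and support nothing further.

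**Figure D2:**
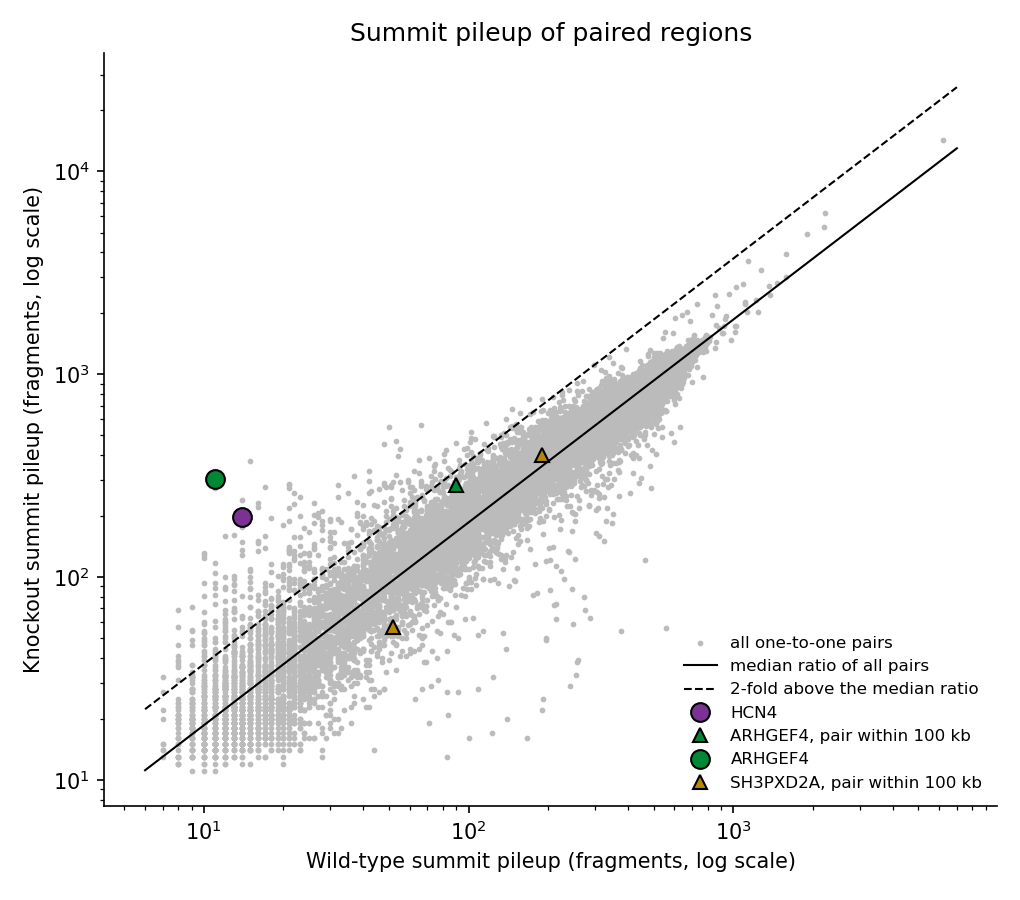
Knockout against wild-type summit pileup in fragments, both on log axes, for 16501 one-to-one pairs (grey), the paired members (circles) and the pairs within 100 kb of a member's window (triangles). The solid line is the median ratio of 1.86 and the dashed line lies 2-fold above it; ARHGEF4 (11 and 306) and HCN4 (14 and 198) lie far above both lines.

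Pairs with a like wild-type pileup gave the knockout pileup of such weak regions where a pair was formed. Weak wild-type regions that formed no pair were left out, so their outcome is not covered. HCN4 and ARHGEF4 were chosen by fold in these same lists, so their contrast with other pairs is a description only. For HCN4, 1579 other pairs had a wild-type pileup from 10 to 21. Their median knockout pileup was 26, with quartiles of 20 and 40, against 198 at HCN4. For ARHGEF4, 1135 other pairs had a wild-type pileup from 8 to 16, and their median knockout pileup was 23, with quartiles of 18 and 32, against 306. A 2-fold centred rise occurred in 10.8% and 11.5% of these 2 sets.

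The reverse view started from the knockout pileup. Regions that paired with a knockout pileup from 132 to 297, near that of HCN4, had a median wild-type pileup of 103.5 over 2708 pairs. For ARHGEF4 the same range ran from 204 to 459, with a median wild-type pileup of 173 over 3445 pairs, and the lowest of those was 11, the value at ARHGEF4 itself. For SH3PXD2A, 1656 pairs had a knockout pileup from 55 to 123, and their median wild-type pileup was 45, with quartiles of 32 and 60.2. Of the 1989 knockout regions in that range, 109 (5.48%) lacked any wild-type region inside 1 kb. The 82 fragments at SH3PXD2A amount to 44.1 when divided by the median ratio of all pairs, 1.86. The ratio of the genome background rates was larger, 2.31, and would give a lower value. Wild-type regions at the genome background rate were called down to a pileup of 7. The narrowest wild-type region was 162 bp, and a taller but narrower stack can go uncalled. For that reason no ratio is given for SH3PXD2A, and its wild-type level was not detectable in a list of called regions.

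The pairs most like each paired member were found by the centred log2 ratio among pairs with a wild-type pileup within a factor of 1.5, over the 2 libraries. For ARHGEF4 the nearest was chr1:208417204-208417961, with pileups of 11 and 276. For HCN4 it was chr15:80696372-80697000, with pileups of 16 and 221. The fold was 4.99 and 9.96 at the former and 7.07 and 12.3 at the latter, in the wild type and the knockout. The knockout fold was 21.9 at ARHGEF4 and 20.2 at HCN4, which were chosen for their fold. The next nearest pairs to ARHGEF4 were chr7:51383602-51384444 and chr19:51522125-51522874, and those to HCN4 were chr5:16616812-16617275 and chr2:7057558-7057997. The knockout folds of these 4 ran from 12.7 to 20.5, and 1 of them exceeded that of HCN4.

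The fold is a quotient, the pileup plus 1 over the local background rate plus 1, so the rate shows how each fold arose. In the wild type the rate was 1.40 fragments at HCN4 and at ARHGEF4, which equals the genome background rate of that library. In the knockout the rate was 8.86 at HCN4, 13.0 at ARHGEF4 and 3.25 at SH3PXD2A. These are 2.73, 4.01 and 1.00 times the genome rate of the knockout library. Knockout regions of like pileup had median rates of 16.7, 26.4 and 6.68, and median folds of 12.1, 12.6 and 11.5. These sets held paired regions only for HCN4 and ARHGEF4, and all regions, paired or not, for SH3PXD2A. All 3 members had a rate below, and a fold above, those medians. Given the pileup, these are the same fact stated in 2 ways, and it follows from the choice of members by fold.

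By fold, the 3 knockout regions stood at percentiles 94.3 (HCN4), 96.9 (ARHGEF4) and 93.0 (SH3PXD2A) of their list. By pileup, they stood at only 38.1, 46.6 and 24.2. The corresponding wild-type percentiles were 20.8 and 13.0 by fold and 8.12 and 3.92 by pileup for HCN4 and ARHGEF4. The change in rank was therefore smaller by pileup, 29.9 points for HCN4 and 42.7 for ARHGEF4. By −log10 q it was 35.7 and 51.2 points. Each of the 3 knockout regions lay below the median of its list by pileup.

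**Figure D3:**
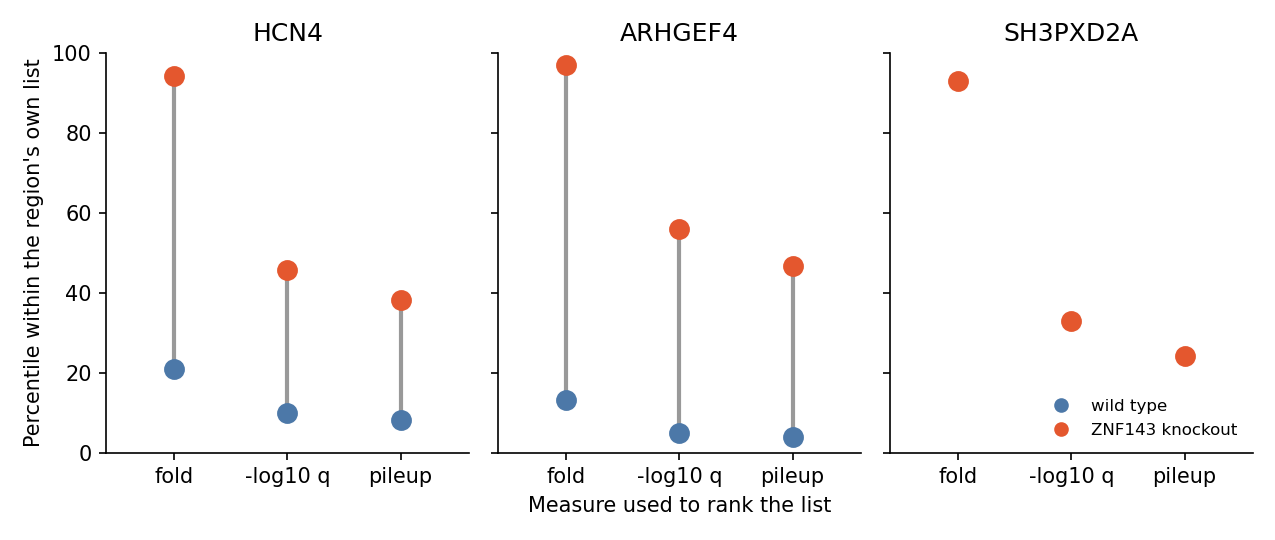
Percentile of each member within its own list (0 to 100) when regions are ranked by fold, −log10 q or pileup, with wild-type points in blue and knockout points in orange. The knockout points fall from above 90 by fold to between 24.2 and 46.6 by pileup, and SH3PXD2A has no wild-type point.

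The called width of the 2 paired members differed between genotypes along with their height. No signal profile was examined, so their shape is not described. The HCN4 region was 2.32 times as wide in the knockout and the ARHGEF4 region 3.66 times, against a median of 1.06 over all pairs. They ranked 243 and 48 among 16501 pairs by this ratio. The 3 pairs nearest to each member in pileup ratio were also wider in the knockout. The nearest to HCN4 went from 629 to 1077 bp and the nearest to ARHGEF4 from 758 to 1657 bp. At HCN4 the knockout region reached 469 bp further on the side of lower positions and 68 bp further on the other. At ARHGEF4 it reached 117 bp further on the side of lower positions and 446 bp further on the other. RefSeq lists HCN4 on the minus strand and ARHGEF4 on the plus strand. In both, the longer extension was on the side towards which the gene is transcribed. How often this holds over all pairs is not known here, since regions were not assigned to genes. The start under each region was not determined either, so nothing is drawn from this direction. The knockout widths of 945, 775 and 610 bp lay between the quartiles of regions of like pileup. Those were paired regions for HCN4 and ARHGEF4 and all knockout regions for SH3PXD2A. The quartiles were 544 and 1190 bp for HCN4, 748 and 1334 bp for ARHGEF4, and 416 and 938 bp for SH3PXD2A. The medians were 911, 1055 and 699 bp. The width of a called region depends on its height and on depth too, and their parts in these values were not tested. Widths were not compared with those of pairs of like wild-type pileup.

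Regions within 100 kb on either side of each window served as local controls. HCN4 had none in either list: its nearest neighbours were 263 kb away in both, a gap at percentile 96.6 of the wild-type list, and 96.5 of the knockout list. ARHGEF4 had 1 neighbour, and SH3PXD2A had 2. The protein-coding genes listed next to SH3PXD2A in GRCh38.p14 are NEURL1 and STN1, but the neighbouring regions were not assigned to genes here.

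The neighbour of ARHGEF4 was chr2:131555215-131555697 in the wild type and chr2:131555028-131555976 in the knockout, 39.2 kb from summit to summit. Its pileup was 90 for the wild type and 285 for the knockout, a centred log2 ratio of 0.77 (95% interval 0.42 to 1.13). In the knockout this neighbour and the ARHGEF4 region had like heights, 285 and 306 fragments, whereas in the wild type the neighbour had 90 and the ARHGEF4 region 11. The fold of the neighbour was 20.1 for the wild type and 21.7 for the knockout, a rise of 4.56 percentile points. The higher pileup at the neighbour thus came with nearly the same fold.

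At SH3PXD2A, the neighbour 62.6 kb away on the side of higher positions was chr10:105677126-105677993 in the wild type. Its pileup was 189 and 399, a centred log2 ratio of 0.18 (−0.07 to 0.44), and its fold was 20.1 and 19.6. The neighbour 82.9 kb away on the other side was chr10:105531973-105532568. Its pileup was 52 and 57, a centred log2 ratio of −0.76 (−1.33 to −0.19), and its fold was 17.3 and 12.1. SH3PXD2A is listed on the minus strand, so this weaker neighbour lay on the side into which the gene extends. Whether it is one of the other start sites of the gene was not determined.

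Wider surroundings, within 1 Mb of each window, were read in the same way with the member left out. Around HCN4 the median centred log2 ratio was 0.37 over 14 pairs, with 11 above 0. Around ARHGEF4 it was 0.18 over 22 pairs, with 17 above 0, and around SH3PXD2A it was 0.00 over 19 pairs, with 9 above 0. The medians over all pairs of chromosomes 15, 2 and 10, with the member left out, were 0.01, 0.01 and −0.02. A 2-fold rise was found in 2 of 14 pairs around HCN4, 3 of 22 around ARHGEF4 and 0 of 19 around SH3PXD2A. The share over all pairs was 2.50%. Over those whole chromosomes, with the member left out, the counts were 10 of 500, 40 of 1088 and 11 of 675. Set against their own surroundings in place of all pairs, the log2 ratios were 2.56 at HCN4 and 3.73 at ARHGEF4. Copy number was not measured; these neighbouring ratios are the values that bear on it.

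One pair near HCN4 resembled it. At chr15:74044990, 384 kb from the HCN4 summit, the pileup was 10 for the wild type and 128 for the knockout, a centred log2 ratio of 2.78. Weak and strong pairs are given apart, with no test of the difference. Around ARHGEF4, the 9 pairs with a wild-type pileup under 100 had a median ratio of 0.77, ran from 0.19 to 1.55 and all lay above 0. The 13 pairs with a pileup of at least 100 had a median of 0.05 and ran from −0.15 to 0.23. Around HCN4, the 4 weak pairs had a median of 0.91 and all lay above 0, and the 10 strong pairs had a median of 0.27. Over the whole lists the weak and strong pairs had medians of 0.03 and 0.00, and 2710 of the 5251 weak pairs lay above 0. Around SH3PXD2A the 5 weak and 14 strong pairs had medians of 0.03 and −0.01. A 2-fold rise was found in 7.37% of all weak pairs. Among the weak pairs around HCN4, ARHGEF4 and SH3PXD2A it was found in 2 of 4, 3 of 9 and 0 of 5. The limit of 100 was chosen after these values were seen.

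**Figure D4:**
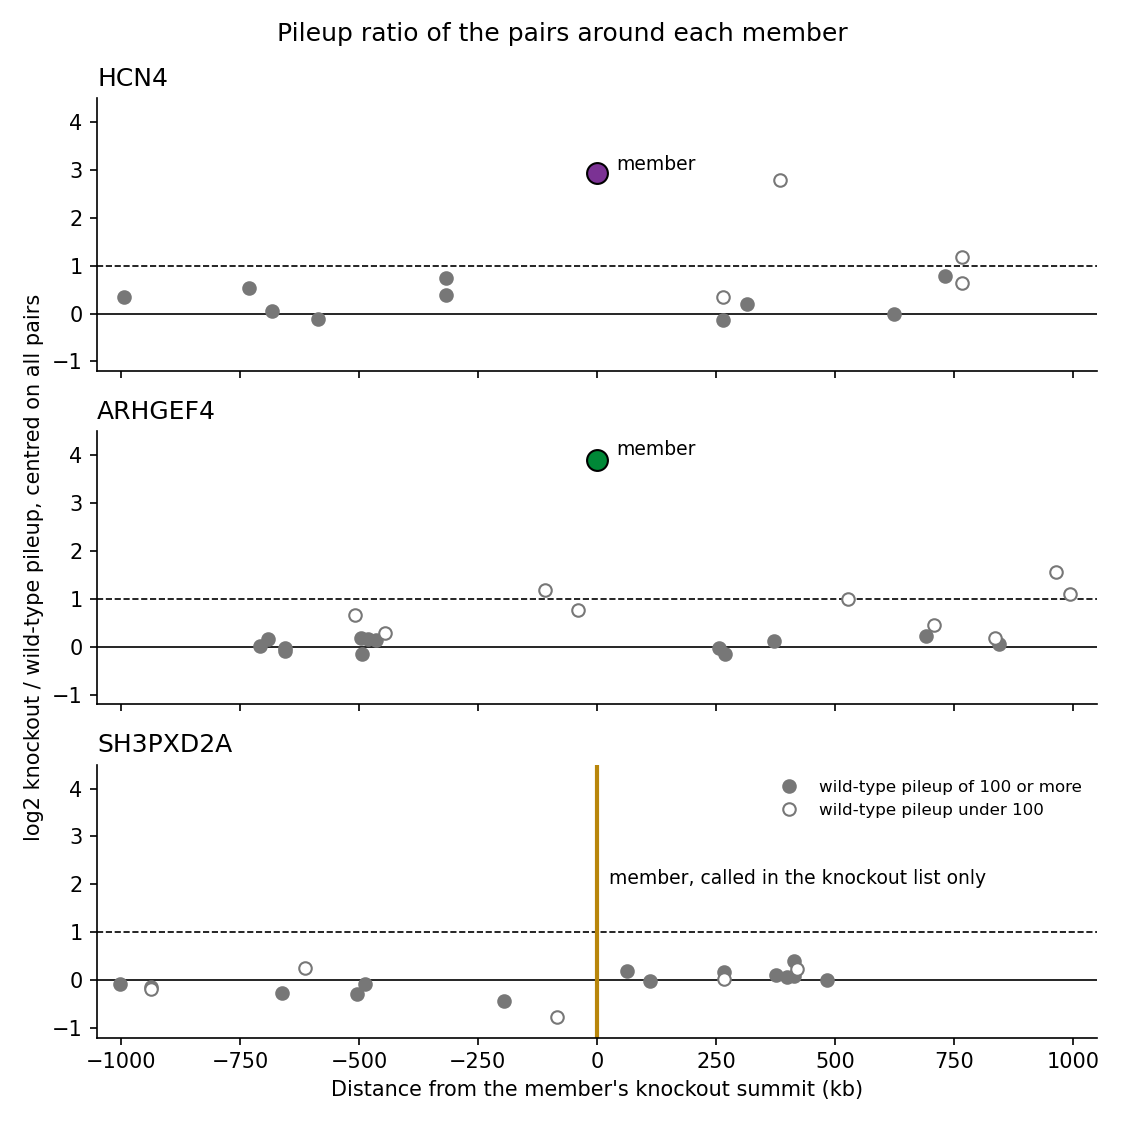
Centred log2 pileup ratio, knockout over wild type, for the one-to-one pairs within 1 Mb of each window, against the distance in kb from the member's knockout summit; open circles have a wild-type pileup under 100, and dashed lines mark a 2-fold rise. HCN4 (2.93) and ARHGEF4 (3.90) stand above all their neighbours, and no pair around SH3PXD2A reaches 1.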

How the data were processed

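H3K4me3 was profiled in 1 wild-type and 1 ZNF143 knockout library, grouped by the genotype in the labels. Bowtie2, SAMtools 1.12, MACS2, deepTools and the hg19 build are named in the submitters' processing notes, without roles or settings. A control library is not given in the sources used here. The deposited lists have 10 columns and no header, and each library has its own region names. The authors deposited a fold ratio, −log10 p-values and −log10 q-values per region, made within each library with no scaling between them, and a score that was not used. These values are the authors'.

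The summit pileup (a whole number) and local rate were solved for each region from the fold, taken as a quotient with 1 added to pileup and to rate, and from the Poisson tail of the p column. The largest relative error of the p column was 8.56e-06 for the wild type and 1.17e-05 for the knockout. On lists made with known pileups by the same formula, 100% of 19782 wild-type and 19644 knockout regions were recovered. This checks only the numerical solution, and not whether the deposited columns follow the formula. Wild-type pileups ran from 7 to 6209 (median 197), knockout pileups from 11 to 14245 (median 355). The genome background rate, the lowest rate, was 1.40 and 3.25, and by this measure the knockout library was sequenced more deeply. Read totals were not used.

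Regions on chromosomes 1 to 22, X and Y that shared at least 1 bp with exactly 1 region of the opposite list, in both directions, formed pairs. Log2 pileup ratios, knockout over wild type, were centred on the median pair, a shift of 0.89. Starts are counted from 1. Percentiles are within a list. A 2-fold difference was the threshold for counts. No test between genotypes was made. The members and lists were chosen with earlier results of these data known. The rule for regions named in the text took all regions in the windows and within 100 kb, and the 3 pairs nearest in ratio to each paired member. Related genes of the same families were not analysed here, since that needs hg19 positions. Alternatives changed the scaling, the measure, the filters and the distances. Calculations used scipy 1.17.1, numpy 2.4.6 and pandas 2.3.3 under Python 3.11.15, and figures matplotlib 3.10.9.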

Additional observations from a re-analysis of the deposited data

How the results depend on the processing

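No paired analysis was possible because a single library stood for each genotype, and no replicate could be left out. The 5 alternatives for the log2 ratio and the other rank measures kept the direction at HCN4 and ARHGEF4. Under a reciprocal overlap of 50%, which left 322 pairs at least 2-fold higher, neither was a pair: the wild-type region covered 43.2% of the knockout region at HCN4 and 27.4% at ARHGEF4. With the deposited fold in place of the pileup, the centred log2 ratio became 1.74 at HCN4 and 2.18 at ARHGEF4, and with −log10 q it became 4.99 at ARHGEF4. The percentile shift of HCN4 was 35.7 by −log10 q and 29.9 by pileup, and that of ARHGEF4 51.2 and 42.7. Scaling by the background rates, a ratio of 2.31, gave log2 ratios of 2.61 and 3.59 at HCN4 and ARHGEF4. It lowered the number of pairs at least 2-fold higher in the knockout from 412 to 216, and the deposited fold gave 127. Within 250 kb the median neighbour ratio was 0.98 at ARHGEF4 and −0.23 at SH3PXD2A. HCN4 had no pair within 250 kb, and SH3PXD2A none within 50 kb. The share of knockout regions with no wild-type partner, 7.37% within 1 kb, became 9.67% at an overlap of 1 bp, 6.49% at 5 kb and 5.23% at a −log10 q of at least 5. SH3PXD2A had no partner at any of these 3 distances. Where not set by the construction of the measure, the cause of these changes was not tested.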

Other observations

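The pairs that followed ARHGEF4 in the order of the centred pileup ratio were chosen after their values were seen. They lay at chr1:208417204-208417961 with a log2 ratio of 3.75, at chr7:51383602-51384444 with 3.74, at chr19:51522125-51522874 with 3.20 and at chr20:49639404-49639644 with 3.14. Their wild-type pileups were 11, 15, 14 and 17 and their knockout pileups 276, 372, 239 and 278. Their rises in fold percentile were 28.5, 37.1, 42.7 and 68.1 points, against 83.9 at ARHGEF4. The ARHGEF4 region ranked 1 by pileup ratio and 2 by fold shift. The pair on chromosome 20 was near the top of both orders, ranked 5 by pileup ratio and 4 by fold shift. The region first by fold shift, chr12:110825061-110825223, stood 12 by pileup ratio.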
